A study of Mus musculus with 2 samples.

Results

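The genes described here build or accompany the hardened outer layer of the epidermis. They comprise the small proline-rich (Sprr), late cornified envelope (Lce), S100 and transglutaminase (Tgm) families together with loricrin, involucrin, the filaggrin-type proteins and 10 other genes of late keratinocyte differentiation. Members were chosen by the gene name that the array files give to each probe. They came to 61 genes with 75 probes, of 27729 genes with 41174 probes on the array. The rule itself uses names and no measured value, although it was drawn up with earlier results of these arrays known.

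Two-colour Agilent arrays compared RNA of 2 cell populations sorted from mouse dorsal skin. The Lgr6-high cells came from mice carrying an EGFP-ires-CreERT2 cassette knocked into the Lgr6 gene, and the Lgr5-high cells from mice carrying that cassette in the Lgr5 gene. In each case the cells with bright green fluorescence were collected, and 3 mice were pooled per sort. Both groups therefore expressed the reporter and an inducible Cre recombinase from a receptor gene's own promoter, no treatment is named, and age and sex are not given in the labels. Array 1 carried Lgr6-high RNA in Cy5 and Lgr5-high RNA in Cy3, and array 2 carried Lgr6-high RNA in Cy3 and Lgr5-high RNA in Cy5. Nothing in the labels shows separate RNA for each array, so the pair counts as 1 replicate, no test of the populations was possible, and every SD below is over 2 hybridisations (n = 2 arrays) that may be technical repeats.

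As keratinocytes leave the basal layer they switch keratins, load calcium-binding and structural proteins, and finally replace the plasma membrane by the cornified envelope. Envoplakin and periplakin lay the first scaffold at the membrane, involucrin, loricrin and the small proline-rich and late cornified envelope proteins are added to it, and transglutaminases join them by covalent bonds. Most of the genes for these proteins sit side by side in the epidermal differentiation complex, which in the mouse lies on chromosome 3. Lgr6 and Lgr5 encode related R-spondin receptors and mark different regions of the hair follicle.

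A ratio below is the log2 of Lgr6-high divided by Lgr5-high intensity, so that values above 0 mean more signal in Lgr6-high cells. A gene was measured if a probe was well above background for at least 1 population on both arrays, and it is represented by its brightest such probe. A gene was called where the mean ratio reached 1 (2-fold) and both arrays reached 0.5 in the same direction. By these rules 24 of the 61 genes (39.3%) were measured, against 6195 of 27729 genes (22.3%) on the whole array. In such pooled RNA, fewer cells of a type and less RNA per cell cannot be told apart.

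Of the 24 measured members, 5 were called higher in Lgr6-high cells (20.8%), against 7.22% of all measured genes. They were Calm4, Sprr1a, Lor, Ppl and Evpl. Lor passed the filter through Lgr6-high cells alone. Among the 20 members above background in both populations on both arrays, 4 were called higher in Lgr6-high cells. Only S100a4 was called higher in Lgr5-high cells, which is 4.17% of the measured members, against 4.79% of all measured genes. The other 18 were not called. The median ratio was 0.39 for the measured members and -0.05 for all measured genes, and 15 members were positive on both arrays, 5 negative on both and 4 of opposite sign. Of all 6195 measured genes, 2091 were positive on both arrays, 2398 negative on both and 1706 of opposite sign. Leaving aside the S100 and transglutaminase families, 14 of 42 genes were measured, 5 were called higher in Lgr6-high cells, none in Lgr5-high cells, and the median was 0.78. The families left out had the lowest medians of those with a measured gene, 0.02 for S100 and -0.54 for the transglutaminases. S100a4, the only member called on the Lgr5-high side, is among the genes left out. The larger median and the lack of such a call therefore follow from leaving these families out. The split is a description and not a test.

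**Figure D1:**
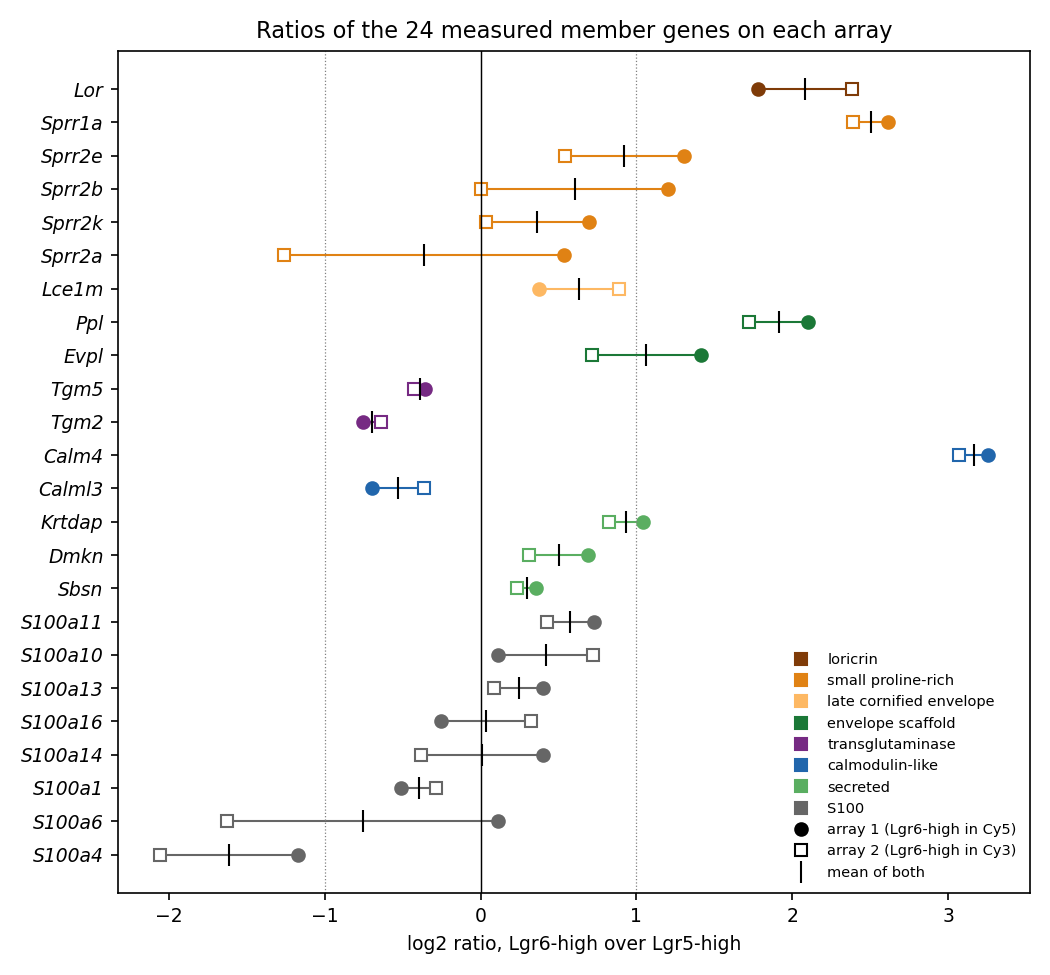
Log2 ratio of Lgr6-high over Lgr5-high on each array for the 24 measured members, with a tick at the mean of both arrays, a line between the arrays and dotted lines at the 2-fold limits. Calm4, Sprr1a, Lor and Ppl lie above 1 on both arrays, S100a4 lies below -1 on both, and the arrays lie farthest apart for Sprr2a and S100a6.

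Loricrin (Lor), the most abundant protein of the mature envelope, had a mean ratio of 2.08 ± 0.43, or 4.24-fold. Its log2 normalised intensity was 9.28 and 9.67 in Lgr6-high cells on arrays 1 and 2, against 7.50 and 7.28 in Lgr5-high cells. Both Lgr6-high values lay above both Lgr5-high values, and the Lgr5-high signal was well above background on 1 array. Involucrin (Ivl), which is laid down before loricrin, was at background in every channel, at 5.73 to 6.07.

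The small proline-rich proteins cross-link other envelope proteins to each other. Sprr1a, a member of this family that is also induced by stress and injury, had a ratio of 2.61 on array 1 and 2.39 on array 2, a mean of 2.50 ± 0.16 or 5.67-fold. Its log2 intensity was 10.13 and 10.38 in Lgr6-high cells, against 7.52 and 7.99 in Lgr5-high cells, so the populations did not overlap. The 4 other measured Sprr genes were not called. Sprr2e had 0.92 ± 0.54, just under the 2-fold limit, with 1.31 on array 1 and 0.54 on array 2. The Lgr5-high signal of Sprr2e was well above background on 1 array. Sprr2b had 0.60 ± 0.85 and Sprr2k 0.36 ± 0.47, in both cases with a ratio close to 0 on array 2. Sprr2a was among the brightest of all members, with 13.28 and 12.81 in Lgr6-high cells and 12.75 and 14.07 in Lgr5-high cells. Its ratios had opposite signs, 0.53 on array 1 and -1.26 on array 2, and the populations overlapped. A second Sprr2a probe was dim in both populations, at 6.40 and 7.04 in Lgr6-high cells against 6.46 and 6.28 in Lgr5-high cells.

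The probes of Sprr2b, Sprr2e and Sprr2k are shown because they read a repeated stretch of the family and share letters, so that a transcript of one gene may bind the probe of another. Capitals mark the longest run of bases that each shares with another member's probe, which is 28 bases between Sprr2b and Sprr2k and 22 bases for Sprr2e. On mm9 the probes lie on the plus strand at chr3:92121449-92121508, chr3:92156847-92156906 and chr3:92237308-92237367, and each is written 5′ to 3′ from the array files.
Sprr2b: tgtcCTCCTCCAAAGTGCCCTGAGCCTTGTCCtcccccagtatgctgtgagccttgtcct
Sprr2e: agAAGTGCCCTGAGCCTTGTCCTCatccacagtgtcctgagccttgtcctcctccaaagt
Sprr2k: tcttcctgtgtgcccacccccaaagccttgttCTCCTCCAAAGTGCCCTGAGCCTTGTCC
The ratios of these 3 genes are uncertain as values of single genes for that reason. A run of 15 or more shared bases occurred in 6 of the 75 probes. These were the 3 shown and the probes of Lce1e, Lce1g and Lce1i, all of them dim, and the longest run among the other probes was 12 bases.

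The Sprr genes that could not be compared were dim rather than missing from the array. Sprr1b, Sprr2d, Sprr2f, Sprr2g and Sprr2h were above background on 1 array, in a log2 range of 5.88 to 6.87, and Sprr3 and Sprr4 were at background in every channel. Cy3 gave more signal than Cy5 on both arrays, so the same-dye comparison is Lgr6-high on array 2 against Lgr5-high on array 1. With Cy3, 11 of the 13 Sprr probes were above background in Lgr6-high cells against 6 of 13 in Lgr5-high cells, and 5 were detected in Lgr6-high cells alone. Before normalisation, the net Cy3 signal of Sprr2f was 136 in Lgr6-high cells and 47.0 in Lgr5-high cells. For Sprr1b it was 100.2 in Lgr6-high cells and 39.0 in Lgr5-high cells. Each of these pairs comes from 1 spot per array, has no replicate and is not corrected for differences between the arrays. The normalised ratios on arrays 1 and 2 were smaller, 0.46 and 0.71 for Sprr2f and 0.07 and 0.27 for Sprr1b.

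**Figure D2:**
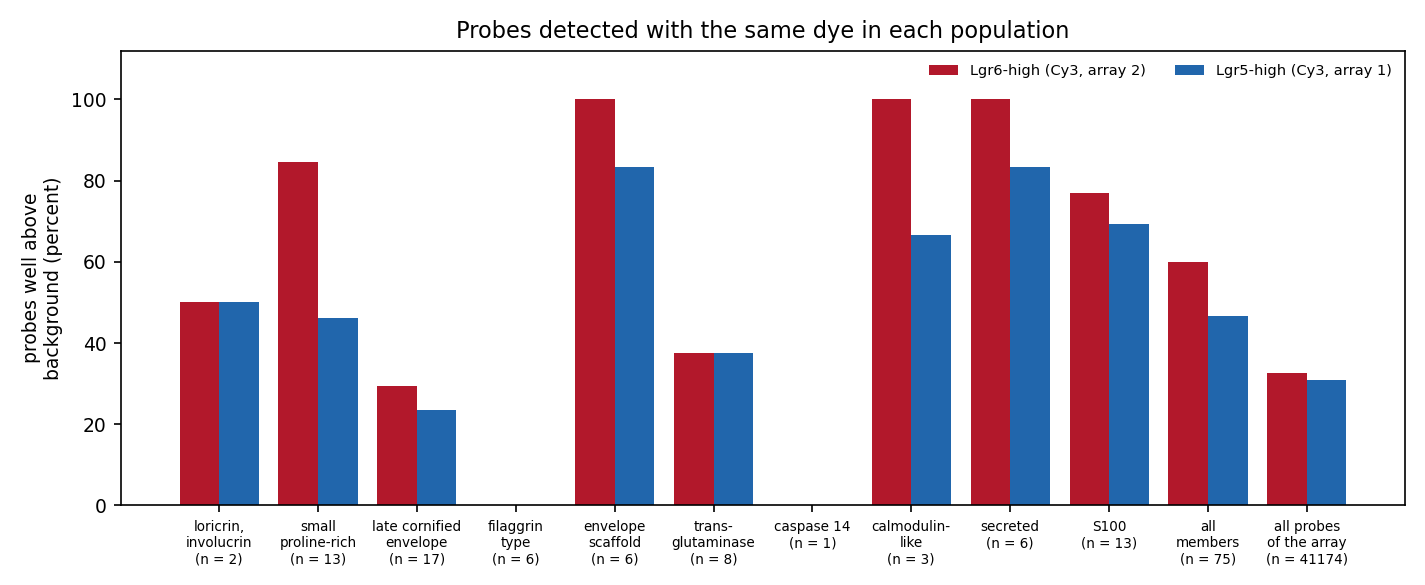
Percent of probes well above background with the same dye, Cy3, for Lgr6-high cells (array 2) and Lgr5-high cells (array 1), by family, with the number of probes under each pair of bars. The Sprr probes show the widest gap among families with 4 or more probes, and the filaggrin-type probes and the caspase 14 probe were not detected in either population.

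Over all 75 member probes, 45 (60%) were detected with Cy3 in Lgr6-high cells and 35 (46.7%) in Lgr5-high cells. In Lgr6-high cells alone 12 probes (16%) were detected, and in Lgr5-high cells alone 2 probes (2.67%), which belonged to Tgm2 and Tgm6. Over all probes of the array, the shares were 32.6% in Lgr6-high cells and 30.9% in Lgr5-high cells, with 4.69% detected in Lgr6-high cells alone and 3.07% in Lgr5-high cells alone.

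The late cornified envelope genes encode short proteins that are added to the envelope after loricrin. Of 14 Lce genes only Lce1m was measured, with 7.22 and 7.74 in Lgr6-high cells against 6.85 and 6.85 in Lgr5-high cells. Its mean ratio of 0.63 ± 0.36 was not called, and the Lgr5-high signal was above background on 1 array. Lce1a1, Lce1b, Lce1c and Lce1l were above background on 1 array, and the remaining 9 were at background in every channel, at no more than 6.56.

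Periplakin and envoplakin, the plakins of the first envelope scaffold, were both called higher in Lgr6-high cells. Ppl had 8.91 and 9.16 in Lgr6-high cells, against 6.81 and 7.43 in Lgr5-high cells, for a ratio of 1.91 ± 0.27 or 3.77-fold. Evpl had 11.28 and 10.98 in Lgr6-high cells, against 9.87 and 10.27 in Lgr5-high cells, for a ratio of 1.06 ± 0.50 or 2.09-fold. Within each gene the populations did not overlap, but the Evpl ratio lay just over the limit and lost its call under 5 of 10 other settings. A second Evpl probe gave 0.80 ± 0.17, and a second Ppl probe was too dim to compare. Sciellin (Scel) and cornifelin (Cnfn), further envelope components, were above background on 1 array, at 6.10 to 6.80.

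The transglutaminases, which form the bonds of the envelope, stood on the other side of 0 where they could be measured. Tgm5, an epidermal form, had -0.39 ± 0.05. Tgm2, a widely expressed form, had -0.70 ± 0.08 and was at background in Lgr6-high cells on both arrays. With the ratios used here, Lgr5-high cells had at least 1.62-fold more of it. Its ratio was -0.39 without background subtraction and -2.90 with the scanner's ratios. Neither Tgm5 nor Tgm2 was called with the ratios used here, and 2 further Tgm2 probes were at background throughout. Tgm1 and Tgm3, the main enzymes of epidermal cross-linking, were above background on 1 array, with Cy3 in Lgr6-high cells and not in Lgr5-high cells. Tgm6 was above background on 1 array, with Cy3 in Lgr5-high cells and not in Lgr6-high cells. Each of these rests on 1 spot per array. Tgm4, best known from the prostate, was above background in no channel.

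The filaggrin-type proteins are named after filaggrin, which bundles keratin filaments. All 4 of their genes, Flg, Flg2, Hrnr and Rptn, were at background in every channel (6 probes, 5.74 to 6.35), as was Casp14, the protease that helps to break filaggrin down (6.05 to 6.32). These levels do not show that the transcripts were missing, only that they were not detectable on these arrays.

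The largest ratio of any member belonged to Calm4, a calmodulin-like calcium sensor of skin. Its log2 intensity was 9.71 and 10.36 in Lgr6-high cells, against 6.45 and 7.29 in Lgr5-high cells. The ratio was 3.26 on array 1 and 3.07 on array 2, a mean of 3.16 ± 0.13 or 8.96-fold, with no overlap. The second Calm4 probe, at background in Lgr5-high cells on both arrays, gave 0.86 ± 0.43 and was not called. That is at least 1.82-fold with the ratios used here. For the same probe the scanner's own ratio was 3.98, and the ratio without background subtraction was 0.53. Calml3, another calmodulin-like protein of epithelia, had -0.53 ± 0.24 and was not called.

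**Figure D3:**
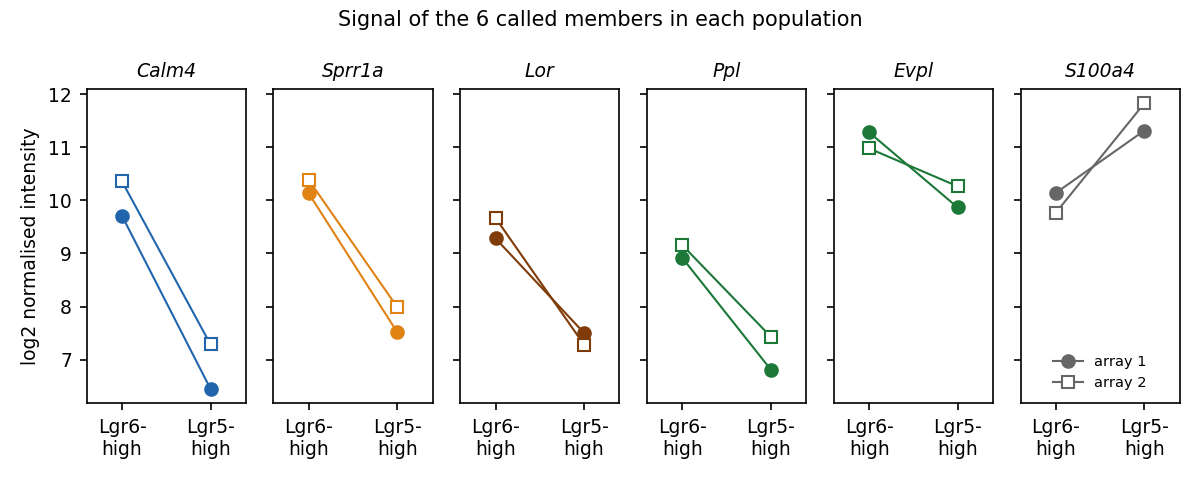
Log2 normalised intensity of the 6 called members in Lgr6-high cells (left) and Lgr5-high cells (right), with a line joining the populations on each array. For Calm4, Sprr1a, Lor, Ppl and Evpl both Lgr6-high points lie above both Lgr5-high points, and for S100a4 both lie below.

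Keratinocyte differentiation-associated protein (Krtdap), dermokine (Dmkn) and suprabasin (Sbsn) are secreted by suprabasal keratinocytes, and all 3 were measured. None was called. Krtdap had 8.01 and 8.04 in Lgr6-high cells, against 6.97 and 7.22 in Lgr5-high cells, a ratio of 0.93 ± 0.15. Its second probe gave 0.998 ± 0.204, also just under the 2-fold limit. Dmkn had 0.50 ± 0.27 and Sbsn 0.30 ± 0.08. Each of the 3 was positive on both arrays.

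The S100 proteins are small calcium sensors, some of them made in differentiating keratinocytes and others in many cell types. Of 13 S100 genes 8 were measured, and S100a4 alone was called. S100a4, a marker often used for fibroblasts and other motile cells, had 10.14 and 9.77 in Lgr6-high cells, against 11.32 and 11.83 in Lgr5-high cells. Its ratio was -1.17 on array 1 and -2.06 on array 2, a mean of -1.62 ± 0.63, or 3.07-fold higher in Lgr5-high cells. The populations did not overlap.

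Markers of 4 other cell types moved with S100a4. Of 6 fibroblast markers on the array 5 were measured and 4 of these, Col1a1, Col1a2, Col3a1 and Dcn, were called higher in Lgr5-high cells, while Pdgfra was at background. Their summed normalised intensity was 730 and 362 in Lgr6-high cells on arrays 1 and 2, against 2988 and 1772 in Lgr5-high cells. Inner root sheath markers were measured for 4 of 5 genes, all negative on both arrays, and Krt28 and Krt71 were called higher in Lgr5-high cells. Their summed intensity was 557 and 346 in Lgr6-high cells, against 1423 and 970.3 in Lgr5-high cells. Of 4 melanocyte markers only Dct was measured, and it was called higher in Lgr5-high cells. Tyrp1 and Mlana were at background, and the list summed to 334 and 250.3 in Lgr6-high cells, against 560.2 and 375 in Lgr5-high cells. Of 3 red cell markers the globins Hba-a1 and Hbb-bt were measured and both called higher in Lgr5-high cells, with Alas2 at background. That list summed to 564 and 428 in Lgr6-high cells, against 1336 and 1119.7 in Lgr5-high cells. Leukocyte, neutrophil and macrophage, dendritic and T cell markers, whose cell types also make S100a4, had no measured gene, and all 8 neutrophil and macrophage markers were at background. The part of RNA from any of these cell types in the S100a4 result was not tested.

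The other S100 genes lay closer to 0. S100a11, which is itself built into the envelope, had 0.58 ± 0.21, and S100a10, the partner of annexin A2, had 0.42 ± 0.43. S100a13 had 0.25 ± 0.22, S100a16 0.04 ± 0.41, S100a14 0.01 ± 0.55 and S100a1 -0.40 ± 0.16. S100a6 (calcyclin) was the brightest measured member, with 13.65 and 12.90 in Lgr6-high cells against 13.54 and 14.52 in Lgr5-high cells. Its mean of -0.76 ± 1.23 came almost wholly from array 2, where it was -1.63 against 0.11 on array 1, and the populations overlapped. S100a8 and S100a9, the calprotectin subunits of neutrophils and inflamed epidermis, were not measured. S100a9 and S100a3 were above background on 1 array, and S100a8, S100a5 and S100a7a in no channel.

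The bright members S100a6, Sprr2a and S100a14 share a limit. At a mean log2 intensity of 12 or more, 180 genes had a median ratio of 0.48 on array 1 and -1.03 on array 2, so that normalised ratios of bright genes differ between the arrays. The scanner's own ratios of S100a6 were -0.53 and -0.43 on arrays 1 and 2, and those of Sprr2a 0.33 and -0.40. By either method neither gene was called.

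Of the 61 genes 45 lie on chromosome 3, between 90315133 and 93368496 on mm9, a span of 3.05 Mb, and 15 of these were measured. S100 genes form both ends, with Lor, the Sprr, Lce and filaggrin-type genes between them. The called genes of the span, S100a4, Lor and Sprr1a, lay apart from each other and were separated by genes that were dim or not called. The 3 other genes called higher in Lgr6-high cells lie elsewhere, Calm4 on chromosome 13, Ppl on chromosome 16 and Evpl on chromosome 11. In the same span 12 further named genes were on the array, 2 of them were measured, and 1 was called, the cysteine-rich Crct1 with 1.32 on array 1 and 1.14 on array 2.

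**Figure D4:**
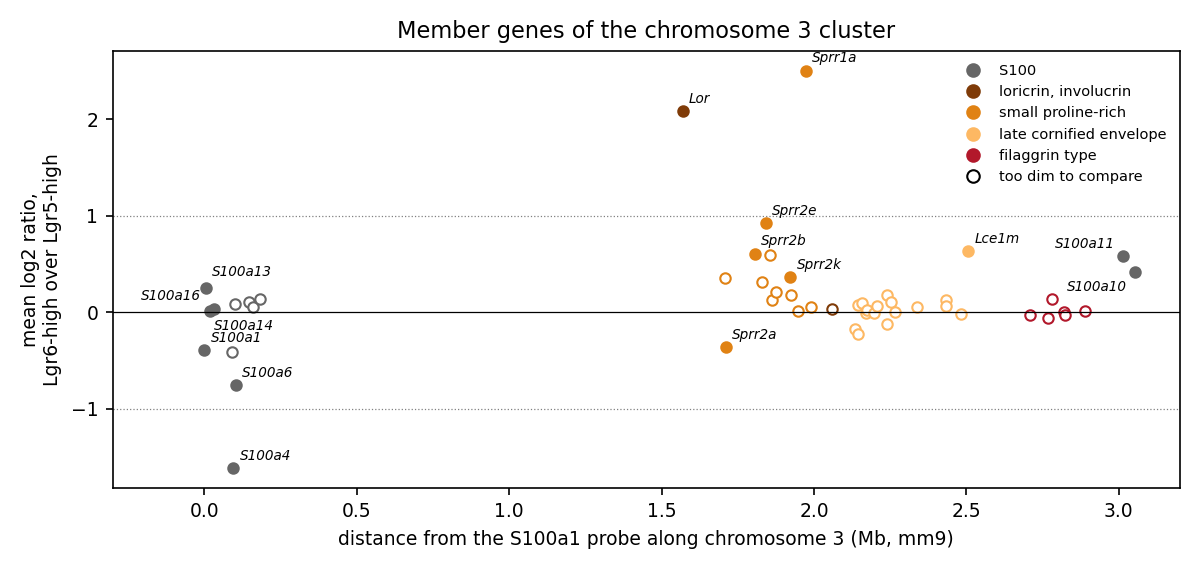
Mean log2 ratio of Lgr6-high over Lgr5-high for members on chromosome 3 against their distance from the S100a1 probe in Mb, with filled points for measured genes, open points for probes too dim to compare and dotted lines at the 2-fold limits. Lor (2.08) and Sprr1a (2.50) stand above the upper limit, S100a4 (-1.62) below the lower one, and most Lce and all filaggrin-type probes are open points near 0.

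The promoter windows of the called members are shown because several genes of the complex are known to be driven by AP-1, the JUN and FOS factors, through sites close to the transcription start. The windows come from RefSeq (GRCm38.p6), run from 250 bases before to 50 bases after the start and are written 5′ to 3′ on the gene's strand. They are chr3:92083093-92083392 (minus strand) for Lor, chr3:92485832-92486131 (minus) for Sprr1a, chr13:3837507-3837806 (plus) for Calm4 and chr3:90603520-90603819 (plus) for S100a4. Ppl and Evpl are named only. Capitals mark the AP-1 motif (TGANTCA). They also mark the TATA box (TATAAA).
Lor: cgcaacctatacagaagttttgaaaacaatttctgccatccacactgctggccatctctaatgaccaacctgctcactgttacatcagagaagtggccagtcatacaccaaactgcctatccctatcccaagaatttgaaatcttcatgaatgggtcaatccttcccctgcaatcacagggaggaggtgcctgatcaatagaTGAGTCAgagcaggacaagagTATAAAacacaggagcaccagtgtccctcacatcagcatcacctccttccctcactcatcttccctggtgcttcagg
Sprr1a: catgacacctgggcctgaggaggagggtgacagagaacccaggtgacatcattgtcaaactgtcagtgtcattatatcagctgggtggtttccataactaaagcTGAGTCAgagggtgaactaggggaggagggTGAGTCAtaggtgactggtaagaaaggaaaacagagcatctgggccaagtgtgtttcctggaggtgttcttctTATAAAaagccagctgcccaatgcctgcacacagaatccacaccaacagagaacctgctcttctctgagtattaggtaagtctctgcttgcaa
Calm4: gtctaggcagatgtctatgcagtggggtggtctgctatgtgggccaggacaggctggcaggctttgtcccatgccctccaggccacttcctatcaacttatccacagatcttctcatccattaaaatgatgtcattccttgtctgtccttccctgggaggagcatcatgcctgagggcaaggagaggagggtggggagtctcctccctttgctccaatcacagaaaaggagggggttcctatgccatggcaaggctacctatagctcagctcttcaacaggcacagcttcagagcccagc
S100a4: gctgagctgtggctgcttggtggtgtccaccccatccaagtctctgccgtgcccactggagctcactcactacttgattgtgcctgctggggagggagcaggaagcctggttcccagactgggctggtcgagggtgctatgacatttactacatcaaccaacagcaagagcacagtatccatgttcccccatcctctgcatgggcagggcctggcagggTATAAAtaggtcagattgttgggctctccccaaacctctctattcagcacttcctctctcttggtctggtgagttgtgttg
The Lor window holds an AP-1 match that begins 48 bases before the start and a TATA box 27 bases before it. Sprr1a holds AP-1 matches at 146 and 116 bases and a TATA box at 43 bases before the start. Calm4, the member with the largest ratio, shows neither motif in this window, and S100a4 shows a TATA box at 31 bases before the start.

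RefSeq windows were matched for 53 of the 61 genes, 61 windows in all, and each motif was searched on both strands. TGANTCA was found in 21 member windows (34.4%), against 7.81% of all 32851 windows, and TATAAA in 23 (37.7%), against 13.6%. Shares were closer for CACCC, a Klf motif, with 62.3% of member windows against 57.5% of all, and for TTGCNNAA (C/EBP), with 18.0% against 10.8%. AACCGG (grainyhead) was found in 1.64% of member windows against 6.83% of all. Matches of different motifs that overlap in a window were each counted. A match is a stretch of letters and not a bound site, and Sprr windows resemble each other, so windows are not independent.

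The AP-1 match was spread unevenly over the families. It stood in 8 of 11 Sprr genes, in both Lor and Ivl, in 3 of 4 filaggrin-type genes and in all 3 secreted genes, but in 2 of 11 S100 genes, 0 of 13 Lce genes and 0 of 5 Tgm genes. Calml3, Evpl, Ppl, S100a10, S100a14 and Tgm2 were measured but had no matched window. They are left out of the next values, although Ppl and Evpl were called higher in Lgr6-high cells. Of the other measured members, the 10 with a match had ratios of 0.04 to 2.50 with a median of 0.59, and 2 were called higher in Lgr6-high cells. The 8 without one had ratios of -1.62 to 3.16 with a median of -0.38, of which Calm4 was called higher in Lgr6-high cells and S100a4 in Lgr5-high cells. These are descriptions of members that share families and sequence, and no test was run on them.

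Other genes of late differentiation, from a list of keratins, junction proteins, proteases, inhibitors and transcription factors that holds no member, were called more often. That list was chosen with earlier results of these data known, so its share of calls is a description and cannot serve as a test. Of 66 on the array 34 were measured, with a median ratio of 1.16. None was called higher in Lgr5-high cells, against 4.79% of all measured genes. In Lgr6-high cells 23 of the 34 (67.6%) were called higher, against 7.22% of all measured genes. Among them were the suprabasal keratin Krt10 (3.55 ± 0.48), the cystatin Cst6 (3.94 ± 0.52), which inhibits cathepsins during cornification, and the tight junction protein Cldn1 (2.36 ± 0.02). The keratin Krt1, at background in Lgr5-high cells on both arrays, was at least 4.67-fold higher in Lgr6-high cells with the ratios used here. Its mean ratio was 2.22, against 1.45 without background subtraction and 5.60 with the scanner's ratios. The differentiation regulators Ovol1 (3.48 ± 0.51), Zfp750 (2.19 ± 0.07) and Klf4 (1.65 ± 0.31) were called in the same direction, as was the filaggrin-processing protease Asprv1 (1.48 ± 0.25). On array 2 the Zfp750 signal of Lgr5-high cells was not well above background, so its ratio and small SD rest in part on a channel at background. The desmosomal cadherin Dsg1a (0.60 ± 0.34), the deiminase Padi1 (0.10 ± 0.25) and the cathepsin Ctsd (0.02 ± 0.17) were not called, nor was Blmh (-0.42 ± 0.40), a protease of filaggrin breakdown. The same held for the Dsg1a and Padi1 signals of Lgr5-high cells on array 2.

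Markers of suprabasal keratinocytes moved with the 5 members called higher in Lgr6-high cells. Krt1 and Krt10 were the 2 measured of 3 on the array, and Krt2 was at background. The summed normalised intensity of the list was 11811 and 8608 in Lgr6-high cells, against 900 and 1056 in Lgr5-high cells. All 6 basal keratinocyte markers were measured in both populations, with a median ratio of 0.95. Itga6 and Itgb4 were called higher in Lgr6-high cells, and 5 of the 6 were with the scanner's ratios. The basal list summed to 231747 and 110955 in Lgr6-high cells, against 59645 and 126878 in Lgr5-high cells, so the arrays disagreed in this normalised sum. Krt14, Krt15 and Krt5 had mean log2 intensities of 14.9, 14.7 and 15.8, in the bright range where normalised ratios differ between the arrays. Their scanner's ratios on arrays 1 and 2 were 1.65 and 1.06 (Krt14), 1.43 and 1.11 (Krt15) and 1.07 and 1.17 (Krt5). The cause of the disagreement was not tested. The part of suprabasal cells in the results for the 5 called members was not tested.

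Of the genes that carried the reporters, Lgr5 had a ratio of -1.83 ± 0.12, lower in Lgr6-high cells, and Lgr6 was too dim to compare. Probes above background made up 14.7% (Cy5) and 32.6% (Cy3) of the array in Lgr6-high cells, and 30.9% (Cy3) and 15.6% (Cy5) in Lgr5-high cells. With the sign of array 2 turned, 37 genes met the same rule, against 447 and 297 genes called higher in Lgr6-high and Lgr5-high cells with the labelled dyes.

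Under the scanner's own background subtraction and dye normalisation, 8 of the 24 measured members were called higher in Lgr6-high cells. In Lgr5-high cells 4 of the 24 were called higher. Of all measured genes 15.5% were called in each direction, so the members' share on the Lgr5-high side lay close to that of all genes. The 3 added for Lgr6-high cells were Lce1m (1.82), Sprr2e (1.65) and Krtdap (1.62), and the 3 added for Lgr5-high cells were Tgm2 (-2.90), S100a1 (-1.14) and Tgm5 (-1.06). The sign of the mean ratio was the same as with normexp and loess for 23 of 24 members. Calm4 (4.57), Sprr1a (3.33), Lor (3.28), Ppl (2.76), Evpl (1.36) and S100a4 (-1.44) kept their calls.

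The members' counts, each out of 24 measured members, can be read against all measured genes under other settings too. Without background subtraction, 4 members were called higher in Lgr6-high cells and 1 in Lgr5-high cells, against 3.37% of all measured genes in each direction. With median centring and no loess, 3 members were called higher in Lgr6-high cells, against 2.16% of all measured genes, and none in Lgr5-high cells, against 0.92%. With all spots in the background fit, 3 members were called higher in Lgr6-high cells, against 2%, and 1 in Lgr5-high cells, against 2.52%. From array 2 alone, 4 members were called higher in Lgr6-high cells, against 9.67%, and 3 in Lgr5-high cells, against 7.94%. From array 1 alone, 8 members were called higher in Lgr6-high cells, against 7.09%, and 1 in Lgr5-high cells, against 4.99%. Limma, with the same 2-fold limit on the mean ratio, called 5 members higher in Lgr6-high cells, against 7.38%, and 1 in Lgr5-high cells, against 4.92%. In all of these settings Calm4 and Sprr1a were among the members called.

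**Figure D5:**
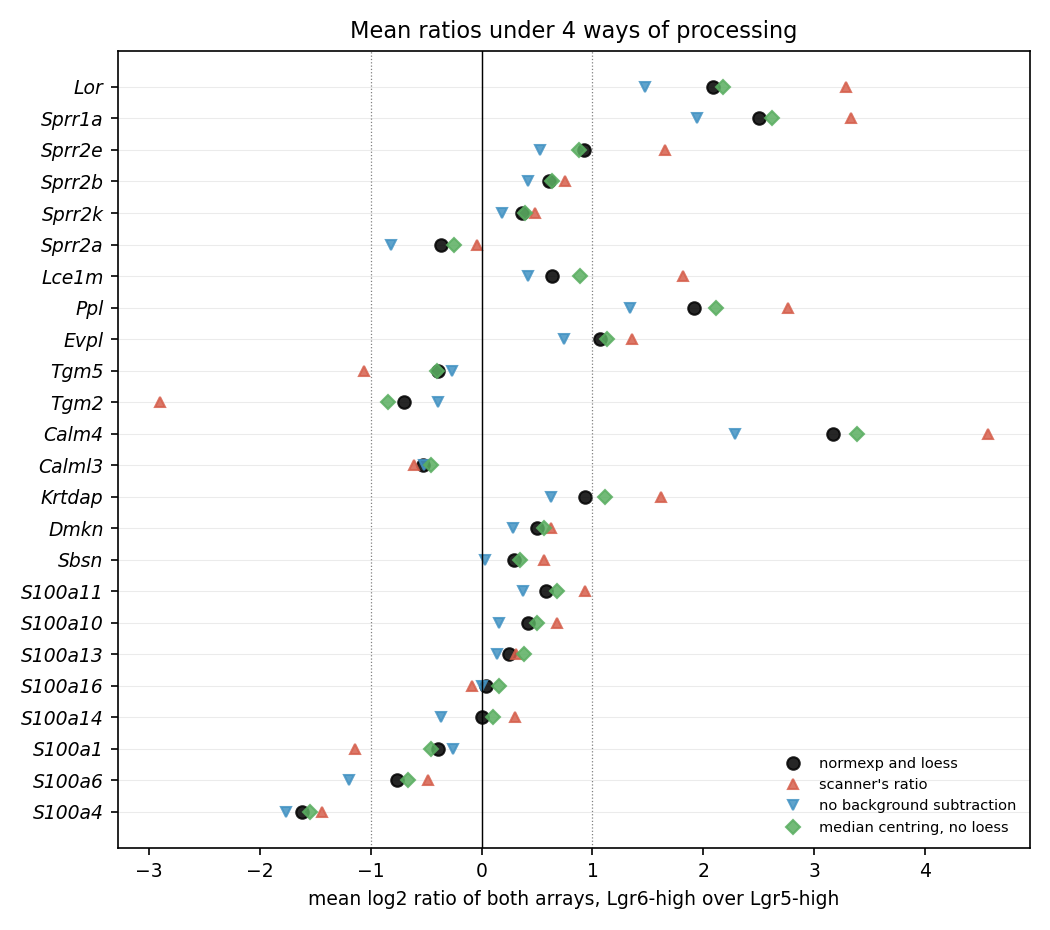
Mean log2 ratio of both arrays, Lgr6-high over Lgr5-high, for the 24 measured members under 4 ways of processing, with dotted lines at the 2-fold limits. Calm4, Sprr1a, Lor and Ppl stay above 1 and S100a4 below -1 in all 4, while Sprr2e, Krtdap, Lce1m, Tgm2, Tgm5 and S100a1 pass a limit with the scanner's ratios, Krtdap also with median centring and S100a6 without background subtraction (-1.19), where Evpl (0.74) falls below 1.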

How the data were processed

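For each array the authors deposited a scanner table with every spot's mean intensity and the median intensity of its surroundings, in both channels. These deposited tables also give a log10 ratio of Cy5 over Cy3, made by the scanner software, and a p-value per spot from the software's error model, which was not used. Per the file headers, Agilent Feature Extraction 10.5.1.1 was used, while version 9.5.3 stands in the submitters' processing notes. In the authors' value table the log10 ratios matched the scanner's on array 1 (23029 of 23029 spots that were not 0, within 1e-04) and had the opposite sign on array 2 (23070 of 23070), so its direction is Lgr6-high over Lgr5-high, and each column's median was 0. Per the labels' protocols, 150 ng of total RNA was amplified and labelled. Each array held 43379 probe spots. None was saturated, and 139 and 204 with an outlier mark were left out.

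Background was corrected with normexp (offset 50) in limma 3.58.1 (R 4.3.3), fitted on spots without an outlier mark, and ratios were normalised by loess within arrays. By the dyes in the labels, every ratio was turned to put Lgr6-high on top, on the log2 scale. Signals per population are log2 intensities after loess and Aquantile. A fold written as "at least" divides the bright population's level by the dim one's or by the lowest level above background, whichever divisor is larger. It is a bound for this processing only. Probes were named through accessions in a RefSeq table (25097), symbols (6333), synonyms (1640) or the file's name (1696), and 6408 had no name. The depth of an array is its signal over background, and only 2 arrays limit the precision. The steps were tested on simulated data. As an alternative, limma's moderated test was run with Benjamini-Hochberg adjustment over 6195 genes at 0.05. A gene called by limma also had to reach a mean ratio of 1 in size, the 2-fold limit of the main rule.

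Every measured member is named, and called members are given with both arrays' values. The members, gene lists and motifs were chosen with earlier results of these data known, and the fit on unmarked spots follows an earlier look at the data.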

Additional observations from a re-analysis of the deposited data

How the results depend on the processing

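The counts of 5 members higher in Lgr6-high cells, 1 member higher in Lgr5-high cells and 23 other late differentiation genes depended on the background and dye steps. With the scanner software's ratios, and equally in the authors' value table, 8 and 4 members were called, and the members' median was 0.60, against 0.39. Without background subtraction the median was 0.17 and 15 late genes were called. With median centring and no loess, 3 and 0 members and 11 late genes were called. That 0 comes from the rule that both arrays agree in direction, since S100a4 then had -3.49 on array 1 and 0.39 on array 2. Its mean of -1.55 was past the 2-fold limit. With all spots in the background fit, 3 members and 11 late genes were called and the median was 0.23, and the fitted Cy5 background SD on array 2 was 387, against 2.43 with unmarked spots. Without the filter on dim probes the median was 0.059. With both populations required above background on both arrays, 20 members were measured, with a median of 0.33. Of these, 4 were called higher in Lgr6-high cells and 1 in Lgr5-high cells, and 18 of 25 late genes were called. The share of all genes under this filter was not computed. Leaving out either array in turn gave 4 to 8 members higher in Lgr6-high cells, 1 to 3 higher in Lgr5-high cells, 19 to 21 late genes and a median of 0.28 to 0.47. From array 1 alone, Krtdap, Sprr2e and Sprr2b were added, and from array 2 alone S100a6 and Sprr2a were added on the Lgr5-high side and Evpl was lost.

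Calm4 and Sprr1a kept their calls in all 10 alternatives that give a ratio. Lor and S100a4 lost theirs with median centring, Ppl with all spots in the background fit, and Evpl, whose ratio ran from 0.71 to 1.41, in 5 of 10. The cause of these losses was not tested. Limma called 5, 1 and 23 genes of these lists, by an adjusted p under 0.05 together with the same 2-fold limit. Its adjusted p was 2.7e-08 for Calm4, 3.4e-07 for Sprr1a, 5.0e-06 for Lor, 9.9e-06 for Ppl, 0.0039 for Evpl and 0.00013 for S100a4. Krtdap (0.0069), Sprr2e (0.011) and Tgm2 (0.036) were also under 0.05 but did not reach the 2-fold limit. These p-values rest on the spread between hybridisations, with each gene's SD drawn toward that of all measured genes. Each ratio already pairs the populations within an array, so no further pairing applies.

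Signal over background limited what could be compared. Of the 61 genes 37 could not be, 16 of them above background on 1 array and 21 in no channel.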
